A study of Mus musculus with 18 samples.

Results

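The comparison is of mouse G1E-ER4 cells after 7 h in 20 nM estradiol with the same cells after 3 h, over every gene that the array measures alone. It uses 3 arrays at each of these times, 6 of the 18 arrays in the series, and 12720 of 18194 genes entered the test. G1E-ER4 is an established line of immature red cell precursors. Its own Gata1 gene, which encodes the master transcription factor of red cell formation, was disrupted, and GATA1 is put back as a fusion protein that stays inactive until estradiol binds its estrogen receptor part. All the arrays hold RNA of this 1 line, so every group, 0 h included, carries the disruption and the fusion. The other groups used below are cells in log-phase growth taken before estradiol (0 h) and cells taken at 14, 21 and 30 h, 3 arrays each. The sources used here do not say what drives the fusion gene, nor whether the arrays of a time, titled biological replicates, came from separate cultures. Each p-value thus measures the spread between samples, and that spread may be technical. No cells kept for 3 h or 7 h without estradiol were analysed here, so the hormone, the activity of GATA1 and time in culture cannot be told apart.

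Red cell precursors mature by switching regulators: GATA2 holds the progenitor state, and GATA1 takes its place at many shared DNA sites, shuts off progenitor and mast cell genes and turns on the red cell programme. That programme builds hemoglobin, which needs globin chains, heme and iron, and a membrane held up by a spectrin skeleton. Later the cell shrinks, condenses its nucleus and clears its organelles, partly through autophagy. The interval between 3 h and 7 h lies early in this course, after the first changes in transcript levels.

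The line's own markers were high at both times. On the log2 scale of the deposited values, the means at 3 h were 12.66 for Tfrc, the transferrin receptor, 11.61 for Klf1, 11.28 for Gata2, 11.09 for Tal1, 10.59 for Gfi1b, 9.84 for Kit, 9.76 for Epor and 9.69 for Gata1, set beside a median of 7.53 for all genes tested. Hba-a1 did not pass the filter on dim genes. The Gata1 signal checks nothing about the labels, since the sources used here do not place its probe set inside or outside the disrupted part. Of the markers of other blood cells, 16 of 28 mast cell and basophil genes, 12 of 23 megakaryocyte genes, 10 of 23 granulocyte and macrophage genes and 9 of 18 lymphoid genes passed the filter. The highest lymphoid marker lay at 4.43 at 3 h, well under the median of the genes tested. Over all probe sets the 6 arrays had medians of 4.06 to 4.09, and their 40th percentiles were 3.24 to 3.26. Arrays of the same time correlated at r of 0.9965 to 0.9979 across probe sets and arrays of different times at 0.995 to 0.9959. The summed level of these lists (log2 of the sum) on the 3 h and 7 h arrays was 10.39 to 10.46 and 10.48 to 10.52 for megakaryocytes, 7.84 to 7.95 and 7.76 to 7.93 for granulocytes and macrophages, and 6.96 to 7.14 and 7.12 to 7.18 for lymphoid cells, and its part in the results was not tested. The number of arrays limits the precision, and detection calls were not analysed here.

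Between 3 h and 7 h, many genes of the red cell programme rose, several transcripts of mast cells and of the progenitor state fell, and most sterol synthesis enzymes, whose median had moved down by 3 h, rose. In all, 1247 genes were called higher at 7 h (9.80% of those tested) and 654 lower (5.14%), together 1901 or 14.9%. The counts of each list below are to be set beside these shares. A gene was called when its adjusted p, from limma with Benjamini-Hochberg adjustment over all 12720 genes, lay under 0.05. Leaving out 3 h replicate 2 gave 429 falls, and leaving out 3 h replicate 3 gave 404. Most of these changes were small. The median called rise was 0.407 and the median called fall -0.354 on the log2 scale, and 62 rises and 38 falls reached 2-fold. In 1241 of the 1247 rises and 650 of the 654 falls the arrays of both times did not overlap, as they did not in 2807 genes (above) and 2223 genes (below) of all those tested. Lack of overlap in a called gene below is thus no support beyond the call. For the largest rises and falls it was a condition of being named. In bulk RNA, fewer cells of a kind and less of a transcript per cell cannot be told apart, and this holds for each value that follows.

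One limit touches all small changes. The deposited values were already on a common scale, and the bacterial and phage controls that are added before hybridisation averaged 11.849 at 3 h and 11.994 at 7 h. Shifting each array so that these controls match, called control scaling below, moved the median change of all genes from 0.0144 to -0.1306 and left 127 genes called higher and 173 lower, or 42.3% higher in place of 65.6%. A change is therefore given relative to the middle of all genes, and any list median between 0 and about 0.14 turned negative with control scaling. The shift is 1 value for each array, so it moved the change of every gene alike. It left the gap between a list and all genes as it was. The controls ranged from 11.786 to 11.887 on the 3 h arrays and from 11.775 to 12.225 on the 7 h arrays. Control scaling passes such differences on to every gene, and their part in the lost calls was not tested. Between 3 h and 7 h the gap between 3′ and 5′ probe sets moved from 1.93 to 2.059 for Actb, from 1.18 to 1.219 for Gapdh and from 1.885 to 1.947 for Tfrc, all in log2 units. The middle 18S ribosomal RNA probe set ranged from 11.345 to 11.73 on the 3 h arrays and from 11.137 to 11.277 on the 7 h arrays, and the 5′ one from 8.187 to 8.543 and from 7.709 to 8.065, so that both lay lower at 7 h without overlap. The part of these in the results was not tested.

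**Figure D1:**
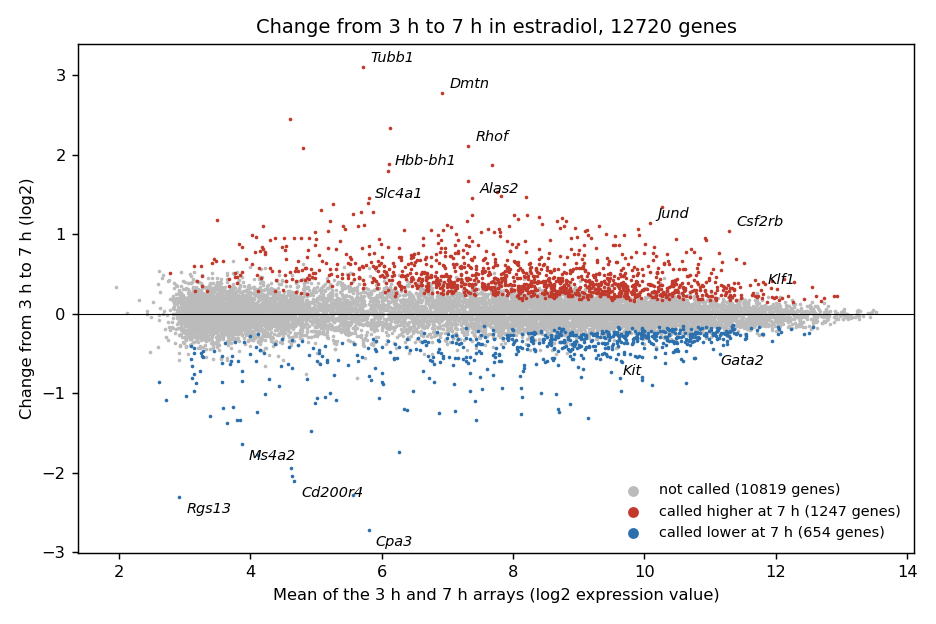
Each point is 1 of 12720 genes, with the mean of its 6 log2 values at 3 h and 7 h on the horizontal axis and its change from 3 h to 7 h (log2) on the vertical axis. Called genes are coloured, 1247 higher in red and 654 lower in blue, and the largest changes lie among genes of low and middle level. Of the bright genes marked, Csf2rb moved by 1.04 and Klf1 by 0.30.

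The largest rise was that of Tubb1, the beta tubulin of platelets and their precursors. Its log2 levels were 4.32, 4.1 and 4.06 at 3 h and 7.32, 7.29 and 7.17 at 7 h, a change of 3.10 (SE 0.13, adjusted p = 1.11e-09) or 8.57-fold. Dmtn encodes dematin, which ties spectrin to actin under the red cell membrane, and its log2 levels were 5.55, 5.56 and 5.51 at 3 h and 8.47, 8.27 and 8.19 at 7 h, a change of 2.77 (SE 0.081, adjusted p = 1.21e-11). For both genes the arrays of a time lay close together, and the gap between times was several-fold wider. Tubb1 had a mean of only 2.43 at 0 h, below the arrays' 40th percentile, and 10.62 at 30 h. Rhof, a small GTPase, was measured at log2 levels of 6.19, 6.22 and 6.39 at 3 h and 8.41, 8.43 and 8.27 at 7 h, a rise of 2.10 (adjusted p = 1.22e-07). Slc38a5, a glutamine and glycine transporter, read 6.66, 6.95 and 6.63 at 3 h and 8.71, 8.62 and 8.53 at 7 h on the log2 scale, a rise of 1.87 (adjusted p = 2.81e-09). Ache, the acetylcholinesterase that also sits on red cells, read 6.46, 6.55 and 6.40 at 3 h and 8.18, 8.27 and 7.98 at 7 h, a rise of 1.67 (adjusted p = 1.47e-08) on the log2 scale. In each of these genes all 3 arrays at 7 h lay above all 3 at 3 h, which the choice of Dmtn, Rhof, Slc38a5 and Ache required. Each was also called with control scaling, Ache the least changed of them at 1.53 (adjusted p = 2.16e-09).

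Many genes of the red cell membrane and its skeleton rose: 18 of 31 members were called higher, none (0) lower and 13 not called, with a median change of 0.37 against 0.0144 for all genes. Control scaling called 6 of them higher, with a median of 0.225. Slc4a1 encodes band 3, the anion exchanger that anchors the skeleton. Its log2 levels were 5.10, 5.27 and 4.90 at 3 h and 6.34, 6.57 and 6.53 at 7 h, a rise of 1.39 (SE 0.082, adjusted p = 2.16e-08). The 7 h level only brought Slc4a1 back to where it began, since its mean was 6.34 at 0 h, 5.09 at 3 h and 6.48 at 7 h, on the way to 12.42 at 30 h. Sptb, the beta spectrin of red cells, had log2 levels of 8.12, 8.19 and 7.98 at 3 h and 9.14, 8.98 and 8.93 at 7 h and rose by 0.92 (adjusted p = 1.55e-06). Tmcc2, a transmembrane coiled-coil gene, rose by 0.95 (adjusted p = 4.50e-07) from a mean of 8.40, and Trim10, a red cell ubiquitin ligase family member also known as HERF1, by 0.91 (adjusted p = 8.01e-08) from 7.73. Tspan33, a tetraspanin of red cell precursors, was already bright: it moved from 11.19 to 11.83, a rise of 0.64 (adjusted p = 6.51e-07) that control scaling reduced to 0.49 (adjusted p = 0.248).

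Among the red cell blood group and adhesion molecules, Icam4, the Landsteiner-Wiener antigen, read 9.15, 9.16 and 9.08 at 3 h and 9.84, 9.81 and 9.72 at 7 h on the log2 scale. Kel, the Kell protease antigen, read 10.38, 10.50 and 10.38 at 3 h and 10.76, 10.75 and 10.71 at 7 h. Icam4 rose by 0.66 (adjusted p = 3.08e-05) and Kel by 0.32 (adjusted p = 0.00689) in log2 units, with no overlap of arrays in either. The promoters of Icam4, Kel and Trim10 and that of Alas2 below are shown because they hold a GATA motif and their genes rose. Each run gives 250 bases before to 50 after the annotated start, 5′ to 3′ on the gene's strand, from RefSeq's table for GRCm38.p6, with AGATAA or TGATAA, or the same letters on the other strand, in capitals. They lie at chr9:21029182-21029481, plus strand (Icam4), chr6:41704276-41704575, minus strand (Kel), chr17:36869324-36869623, plus strand (Trim10) and chrX:150547167-150547466, plus strand (Alas2).
Icam4: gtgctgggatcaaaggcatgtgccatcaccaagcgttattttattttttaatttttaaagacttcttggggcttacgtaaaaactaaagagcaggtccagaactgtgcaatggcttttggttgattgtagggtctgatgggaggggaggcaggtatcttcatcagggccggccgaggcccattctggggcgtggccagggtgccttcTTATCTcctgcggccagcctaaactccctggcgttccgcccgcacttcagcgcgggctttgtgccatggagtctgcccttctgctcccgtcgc
Kel: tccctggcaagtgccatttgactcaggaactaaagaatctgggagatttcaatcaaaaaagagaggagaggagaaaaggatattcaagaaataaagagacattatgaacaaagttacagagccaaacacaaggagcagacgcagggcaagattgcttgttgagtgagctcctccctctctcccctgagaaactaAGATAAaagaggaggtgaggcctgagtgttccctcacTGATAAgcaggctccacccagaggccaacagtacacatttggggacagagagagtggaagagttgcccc
Trim10: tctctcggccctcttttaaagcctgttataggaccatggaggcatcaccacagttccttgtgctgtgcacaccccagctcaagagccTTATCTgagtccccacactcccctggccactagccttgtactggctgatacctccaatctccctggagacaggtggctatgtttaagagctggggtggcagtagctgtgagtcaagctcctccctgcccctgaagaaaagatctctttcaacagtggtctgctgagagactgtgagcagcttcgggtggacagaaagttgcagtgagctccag
Alas2: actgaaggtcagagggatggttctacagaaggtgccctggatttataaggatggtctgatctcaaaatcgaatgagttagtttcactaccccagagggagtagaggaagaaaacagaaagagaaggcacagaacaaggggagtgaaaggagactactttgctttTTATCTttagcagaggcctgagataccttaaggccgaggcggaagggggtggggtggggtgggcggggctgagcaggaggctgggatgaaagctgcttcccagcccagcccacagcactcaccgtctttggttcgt
The motif began 43 bases before the start of Icam4, 56 and 19 bases before that of Kel, 163 before that of Trim10 and 86 before that of Alas2. It was found in 11 of 22 membrane and skeleton genes with a promoter entry (50%) and in 3 of 7 heme synthesis genes (42.9%). Both counts include genes that were not called. The motif also stood in all 3 globin genes with an entry (100%), Hba-a2, Hba-x and Hbb-y, which were not called. For scale, 6115 of all 32851 promoters in the table hold it (18.6%), as do those of 1308 of 10260 tested genes with an entry (12.7%), where a gene counts if any of its promoters does. A match describes these letters in this window and is no evidence of binding.

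Most enzymes of heme synthesis rose. Of 8 tested enzymes of heme synthesis 6 were called higher and none (0) lower, with a median of 0.306, and of 11 genes of heme transport, breakdown and sensing 5 were called higher and none (0) lower, with a median of 0.3. Control scaling left 1 call in each. Alas2, the erythroid enzyme that starts the pathway, had log2 levels of 6.72, 6.56 and 6.67 at 3 h and 8.05, 8.19 and 8.07 at 7 h, a rise of 1.45 (SE 0.082, adjusted p = 1.47e-08). Ppox, the protoporphyrinogen oxidase, read 10.06, 10.10 and 9.95 at 3 h and 10.73, 10.70 and 10.65 at 7 h and rose by 0.66 (adjusted p = 1.17e-06). Uros, the uroporphyrinogen synthase, moved from a mean of 8.76 to 9.37, a rise of 0.60 (adjusted p = 2.85e-05), and Alad, which joins the first pathway product into a ring, from 11.74 to 12.14, a rise of 0.41 (adjusted p = 3.85e-05). Abcb6, a porphyrin transporter, had log2 levels of 10.47, 10.48 and 10.38 at 3 h and 11.48, 11.42 and 11.29 at 7 h, with a rise of 0.95 (adjusted p = 2.39e-07) that control scaling kept at 0.81 (adjusted p = 0.00633). Eif2ak1, the kinase HRI that couples translation to heme supply, rose by 0.56 (adjusted p = 3.20e-06), and Tmem14c, which moves a heme precursor across the inner mitochondrial membrane, by 0.44 (adjusted p = 3.85e-05). Hmox1, the oxygenase that breaks heme down, read 6.62 at 0 h, 5.42 at 3 h and 6.01 at 7 h, so its rise of 0.59 (adjusted p = 5.10e-04) left it below the starting level.

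Iron genes moved less. Of 15 tested, 4 were called higher and none (0) lower, with a median of 0.087 (-0.058 with control scaling, which called none (0)). Those that rose act at the mitochondrion or in endosomes, as do several members that were not called. Slc25a37, mitoferrin 1, which carries iron into mitochondria, had log2 levels of 9.19, 9.52 and 9.62 at 3 h and 10.03, 10.13 and 10.29 at 7 h and a rise of 0.71 (adjusted p = 2.53e-04). Slc25a38, the glycine carrier that feeds heme synthesis, read 7.83, 7.63 and 7.65 at 3 h and 8.35, 8.37 and 8.34 at 7 h, a rise of 0.65 (adjusted p = 1.11e-04). Fam210b, a mitochondrial protein of the heme and iron machinery, rose by 0.77 (adjusted p = 2.39e-07), and Steap3, the endosomal ferrireductase, by 0.34 (adjusted p = 0.00462). Tfrc, which brings iron into the cell, was bright and flat, at 12.63, 12.70 and 12.65 at 3 h and 12.73, 12.67 and 12.70 at 7 h on the log2 scale, a change of 0.04 (adjusted p = 0.642).

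Of 5 globin genes tested, Hbb-bh1, an embryonic beta-like chain, alone was called (1 higher, 0 lower). Its log2 levels were 5.21, 5.12 and 5.26 at 3 h and 7.11, 7.06 and 6.81 at 7 h, a rise of 1.80 (SE 0.13, adjusted p = 2.42e-07), and every array at 7 h lay above every array at 3 h. Hba-x, the embryonic zeta chain, read 3.35, 3.71 and 3.26 at 3 h and 4.04, 4.1 and 3.21 at 7 h, with overlapping arrays and a change of 0.34 (adjusted p = 0.23). Hbb-y, the other embryonic beta-like chain, read 2.54, 1.75 and 2.98 at 3 h and 2.44, 2.68 and 3.61 at 7 h, again overlapping, with a change of 0.49 (adjusted p = 0.421). Both lay near the bottom of the arrays at these times and reached means of 8.87 and 9.26 at 30 h. The adult chains were not called: the means at 3 h and 7 h were 10.37 and 10.33 for Hba-a2 (adjusted p = 0.832) and 11.59 and 11.58 for Hbb-b2 (adjusted p = 0.98). Since adult globin genes exist in near-identical copies, their probe sets may not separate them.

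**Figure D2:**
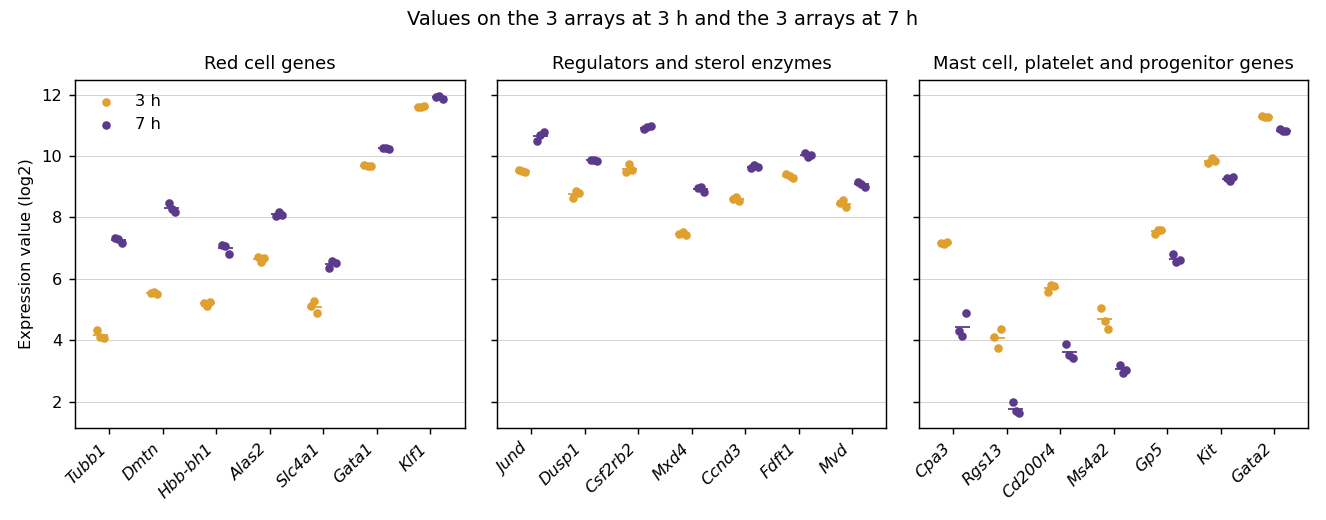
Log2 expression values of 21 genes on each of the 3 arrays at 3 h (yellow) and 7 h (purple), with a bar at the mean of 3 arrays. The left panel holds red cell genes and Tubb1, the middle panel regulators and sterol enzymes, and all of these lie higher at 7 h. The right panel holds mast cell and progenitor genes and the platelet gene Gp5, and all of these lie lower. Gp5 does not stand for platelet genes: in the megakaryocyte list 3 were called higher, Tubb1 among them, and 1 lower. The genes were picked for display, and in none of the 21 do the arrays of both times overlap.

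Most transcription factors of the red cell programme rose by small amounts. Of 20 tested in the list of GATA switch and erythroid factors, 13 were called higher, 1 lower and 6 not at all, Lmo2, Foxo3, Bach1, Bcl11a, Hipk2 and Lyl1, with a median of 0.363. Control scaling called none (0) of them in either direction, for a cause that was not tested. Their median was then 0.218 beside -0.1306 for all genes, a gap that this scaling cannot change. Gata1 had log2 levels of 9.70, 9.69 and 9.67 at 3 h and 10.27, 10.26 and 10.24 at 7 h, a change of 0.57 (SE 0.081, adjusted p = 1.67e-04). Zfpm1, the cofactor FOG1 through which GATA1 represses and activates many targets, read 10.42, 10.55 and 10.37 at 3 h and 10.96, 10.94 and 10.89 at 7 h, a change of 0.48 (SE 0.092, adjusted p = 0.00189). Klf1, the factor behind adult globin and membrane genes, read 11.61, 11.59 and 11.63 at 3 h and 11.92, 11.97 and 11.86 at 7 h, a change of 0.30 (SE 0.051, adjusted p = 7.39e-04). In all 3 the arrays did not overlap. Gata1 first lay lower, with means of 10.21 at 0 h and 9.69 at 3 h, and at 10.26 was back near its starting level. Since its probe set is not placed inside or outside the disrupted part, the Gata1 signal may come from the disrupted gene, the fusion or both. Klf1 gained about as much at this step as before it, from 11.31 at 0 h. E2f2, an E2F factor with a role in red cell divisions, moved from 6.77 to 7.54, a rise of 0.77 (adjusted p = 2.38e-08), and Mafk, a small MAF partner of NF-E2, from 8.75 to 9.33, a rise of 0.58 (adjusted p = 4.18e-06). Zbtb7a, the factor LRF, rose by 0.61 (adjusted p = 2.61e-05).

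Gata2 was the 1 member of that list to fall, at log2 levels of 11.30, 11.26 and 11.27 at 3 h and 10.87, 10.82 and 10.80 at 7 h, a change of -0.44 (SE 0.062, adjusted p = 1.23e-04). Its change fell short of the threshold with control scaling, at -0.59 (adjusted p = 0.0976). Its mean lay lower at each later time too, down to 8.19 at 30 h from 12.29 at 0 h. In the list of progenitor factors and surface genes 3 of 18 were called lower and none (0) higher, with a median of -0.136, and 6 were lower with averaged probe sets. Kit, the receptor for stem cell factor, read 9.78, 9.92 and 9.83 at 3 h and 9.29, 9.20 and 9.31 at 7 h, a change of -0.57 (SE 0.13, adjusted p = 0.00547). Ikzf2, the zinc finger factor Helios, read 7.79, 7.79 and 7.62 at 3 h and 6.53, 6.52 and 6.49 at 7 h, a change of -1.22 (SE 0.097, adjusted p = 4.64e-07). In both, every array at 7 h lay below every array at 3 h, and both were also called with control scaling, Kit at -0.72 (adjusted p = 0.0195). Myc, the growth factor-driven transcription factor, was not called, with log2 levels of 10.24, 10.16 and 10.18 at 3 h and 10.25, 10.24 and 10.05 at 7 h that overlap, a change of -0.01 (adjusted p = 0.973), after a mean of 10.97 at 0 h.

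The mast cell and basophil list held the largest fall of all genes called, that of Cpa3. Of 16 tested members 7 were called lower and 1 higher, with a median of -0.201, and control scaling called the same number lower, 7, and none (0) higher. A gene passed the filter through the arrays where it is high, and Rgs13, Ms4a2, Cd200r3 and Gzmb had 7 h means under the arrays' 40th percentile, so in this count they could hardly appear except as falls. Cpa3, the carboxypeptidase of mast cell granules, had log2 levels of 7.16, 7.12 and 7.21 at 3 h and 4.31, 4.15 and 4.87 at 7 h, a change of -2.72 (SE 0.24, adjusted p = 1.55e-06). Rgs13, which restrains G-protein signalling in mast cells, read 4.1, 3.75 and 4.36 at 3 h and 1.97, 1.70 and 1.64 at 7 h, a change of -2.30 (SE 0.19, adjusted p = 5.96e-07). Cd200r4, a receptor of the CD200R family, read 5.56, 5.79 and 5.77 at 3 h and 3.88, 3.51 and 3.41 at 7 h, a change of -2.10 (SE 0.20, adjusted p = 2.66e-06). The 7 h arrays of these genes stood well below the 3 h arrays, though at the low 7 h values of Rgs13 its fold is uncertain. Ms4a2, a subunit of the high-affinity IgE receptor, read 5.06, 4.62 and 4.38 at 3 h and 3.20, 2.92 and 3.04 at 7 h, a change of -1.63 (SE 0.14, adjusted p = 7.62e-07) that is uncertain for the same reason. Cd200r3 moved from a mean of 3.62 to 2.75 (adjusted p = 0.00484) and Gzmb, the cytotoxic protease granzyme B, from 3.53 to 3.00 (adjusted p = 0.00436), and since both ended that low the size of these falls is uncertain too. Gzmb had a mean of 6.29 at 0 h. The list's other members went different ways: Il4, a cytokine gene, rose by 0.51 (adjusted p = 2.88e-05), and Hdc, the enzyme that makes histamine, changed by 0.35 (adjusted p = 0.225). The list's summed level, 11.1 to 11.16 on the 3 h arrays and 10.99 to 11.06 on the 7 h arrays (log2 of the sum), moved little but did not overlap between times. Kit, the list's brightest member at 3 h, also stands in the progenitor list.

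The promoters of the strongest fallers in this list are shown because each holds the GATA motif (capitals, as above). They lie at chr3:20242132-20242431, minus strand (Cpa3), chr1:144177323-144177622, minus strand (Rgs13), chr19:11623670-11623969, minus strand (Ms4a2) and chr16:44820478-44820777, plus strand (Cd200r4), in GRCm38.p6.
Cpa3: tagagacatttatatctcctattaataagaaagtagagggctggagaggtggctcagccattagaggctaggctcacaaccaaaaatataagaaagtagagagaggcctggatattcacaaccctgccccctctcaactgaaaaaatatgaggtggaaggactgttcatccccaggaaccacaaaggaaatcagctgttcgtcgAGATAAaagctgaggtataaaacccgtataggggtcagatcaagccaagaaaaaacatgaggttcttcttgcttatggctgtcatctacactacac
Rgs13: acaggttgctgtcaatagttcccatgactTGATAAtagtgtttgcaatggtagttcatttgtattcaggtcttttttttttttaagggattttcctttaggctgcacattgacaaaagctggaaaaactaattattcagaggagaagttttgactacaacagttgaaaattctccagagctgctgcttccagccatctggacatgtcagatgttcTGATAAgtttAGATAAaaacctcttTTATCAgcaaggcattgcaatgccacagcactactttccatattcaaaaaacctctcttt
Ms4a2: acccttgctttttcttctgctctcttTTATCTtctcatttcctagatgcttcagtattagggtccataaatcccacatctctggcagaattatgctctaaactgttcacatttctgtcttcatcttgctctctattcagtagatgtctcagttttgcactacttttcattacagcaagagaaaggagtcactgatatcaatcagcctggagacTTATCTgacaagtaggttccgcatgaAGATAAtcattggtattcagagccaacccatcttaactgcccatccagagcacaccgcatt
Cd200r4: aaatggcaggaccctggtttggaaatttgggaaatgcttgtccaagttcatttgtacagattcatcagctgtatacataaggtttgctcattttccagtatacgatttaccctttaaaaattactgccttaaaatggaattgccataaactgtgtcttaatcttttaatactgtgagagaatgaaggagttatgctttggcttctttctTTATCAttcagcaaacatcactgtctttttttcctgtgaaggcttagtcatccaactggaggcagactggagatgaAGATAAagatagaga
Rgs13 held 4 matches, starting 221, 35, 25 and 10 bases before its start, Ms4a2 held 3, Cd200r4 held 2 and Cpa3 held 1. In this list 6 of 14 genes with an entry held the motif (42.9%), as did 11 of 28 genes that were lower by 2-fold or more (39.3%), 12 of 45 that were higher by 2-fold or more (26.7%), 167 of all 1032 called higher (16.2%) and 67 of all 519 called lower (12.9%). The motif thus stood in promoters of strong risers and strong fallers alike, and these shares are given without a test.

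Genes of megakaryocytes, the platelet-forming cells that share a precursor with red cells, did not move together. Of 12 tested, 3 were called higher and 1 lower, with a median of 0.097 (-0.048 with control scaling). Beside Tubb1, Itgb3, the beta chain of the platelet fibrinogen receptor, read 6.27, 6.18 and 6.08 at 3 h and 6.65, 6.66 and 6.76 at 7 h on the log2 scale, a rise of 0.51 (adjusted p = 7.45e-05). Gp5, a platelet glycoprotein, fell, with log2 levels of 7.46, 7.58 and 7.59 at 3 h and 6.82, 6.55 and 6.61 at 7 h and a change of -0.88 (adjusted p = 3.48e-05). The arrays of Itgb3 and Gp5 moved in opposite directions without overlap. Of 10 granulocyte and macrophage genes, Ms4a3 alone was called (1 lower, 0 higher), at -0.82 (adjusted p = 0.00607) from a mean of 4.70, and of 9 lymphoid genes none (0) was called.

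Most enzymes of cholesterol synthesis rose. Of 18 tested, 12 were called higher, none (0) lower and 6 not called, with a median change of 0.337, after a median of -0.326 between 0 h and 3 h. With control scaling their median was 0.192, and no enzyme (0) was called. Fdft1, the squalene synthase, had log2 levels of 9.41, 9.35 and 9.27 at 3 h and 10.11, 9.98 and 10.04 at 7 h, a rise of 0.70 (SE 0.067, adjusted p = 2.98e-06). Mvd, which makes isopentenyl diphosphate, read 8.46, 8.57 and 8.33 at 3 h and 9.15, 9.10 and 9.0 at 7 h, a rise of 0.63 (SE 0.079, adjusted p = 5.24e-05). Lss, which closes the sterol ring system, read 9.46, 9.44 and 9.42 at 3 h and 10.15, 10.07 and 9.96 at 7 h, a rise of 0.62 (SE 0.11, adjusted p = 0.00132). In each the arrays of both times stood apart. Sqle, the squalene epoxidase, moved from 9.88 to 10.25, with 10.25 at 0 h, and Hmgcs1, the synthase that makes HMG-CoA, from 12.08 to 12.30, with 12.43 at 0 h. Both steps use the 3 h arrays, so a low 3 h value makes one change negative and the other positive, and the difference between the steps was tested as 1 contrast, which called 14 of the 18 enzymes (all in the direction of a larger change at the later step).

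Lipid genes outside that pathway moved less. Of 19 genes of SREBP control, lipoprotein uptake and fatty acid synthesis 4 were called higher and none (0) lower, with a median of 0.046 (-0.1 with control scaling). Only 1 was called without 3 h replicate 3 or 7 h replicate 3, and 2 without 3 h replicate 1 or 7 h replicate 2. Fads1, a fatty acid desaturase, read 10.39, 10.39 and 10.34 at 3 h and 10.80, 10.78 and 10.71 at 7 h, a rise of 0.39 (adjusted p = 7.28e-05), and lay at 10.92 at 0 h. Abca1, which exports cholesterol from cells, went the other way, with log2 levels of 6.20, 6.27 and 6.27 at 3 h and 5.24, 5.48 and 5.52 at 7 h and a change of -0.83 (adjusted p = 0.00307), called with control scaling too at -0.98 (adjusted p = 5.04e-04). It was the 1 gene called of 5 LXR targets tested, and control scaling called 2. A sterol response motif, TCACNCCAC on either strand, stood in 1.24% of all promoters. Of genes with an entry, 1.43% of those tested and 1.45% of those called higher held it. Other lists had like shares from few genes, such as 2 of 21 glycolysis genes (9.52%) and 1 of 14 p53 targets (7.14%). Among cholesterol genes with an entry it was found in 1 of 15 (6.67%), a count too small to read as a result. That gene is Hmgcs1, whose promoter at chr13:119690101-119690400, plus strand, is shown for that reason with the motif in capitals.
Hmgcs1: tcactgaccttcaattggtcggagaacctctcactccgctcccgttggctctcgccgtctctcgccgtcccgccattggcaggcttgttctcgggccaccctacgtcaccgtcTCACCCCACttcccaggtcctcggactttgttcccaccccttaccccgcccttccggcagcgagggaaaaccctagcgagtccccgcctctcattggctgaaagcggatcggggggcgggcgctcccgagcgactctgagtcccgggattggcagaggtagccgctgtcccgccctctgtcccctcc
The motif begins 137 bases before the annotated start of Hmgcs1. The KLF motif CCACACCC stood in 5.14% of genes called higher and 5.39% of those called lower with an entry, against 4.75% of all tested, and the E-box CACGTG in 14.2% and 16.4%, against 11.3%.

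Many genes outside that pathway also changed differently at the 2 early steps, among them genes that turned at 3 h and genes that began to move only then. The test of the difference between the 2 steps called 1903 genes (15%), with a higher change at the later step in 1197 and a lower one in 706. Leaving out 3 h replicate 2 gave 1225 calls in all, and leaving out 3 h replicate 3 gave 1077. Jund, an AP-1 subunit, is an example: its mean was 10.99 at 0 h, and its log2 levels were 9.53, 9.52 and 9.49 at 3 h and 10.49, 10.67 and 10.79 at 7 h, a rise of 1.14 (SE 0.078, adjusted p = 1.22e-07), with an adjusted p = 1.97e-08 for the difference between steps. Mnt, a MAX partner that opposes MYC, had a mean of 9.13 at 0 h and log2 levels of 7.63, 7.56 and 7.67 at 3 h and 8.44, 8.49 and 8.44 at 7 h, a rise of 0.84 (adjusted p = 2.61e-05). Both had lost more by 3 h than they regained by 7 h. Rragd, a GTPase that signals amino acids to mTORC1, had a mean of 7.91 at 0 h and log2 levels of 7.39, 7.44 and 7.35 at 3 h and 8.62, 8.70 and 8.58 at 7 h, a rise of 1.24 (adjusted p = 6.45e-09), and passed its starting level. It kept rising, to 12.37 at 30 h.

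**Figure D3:**
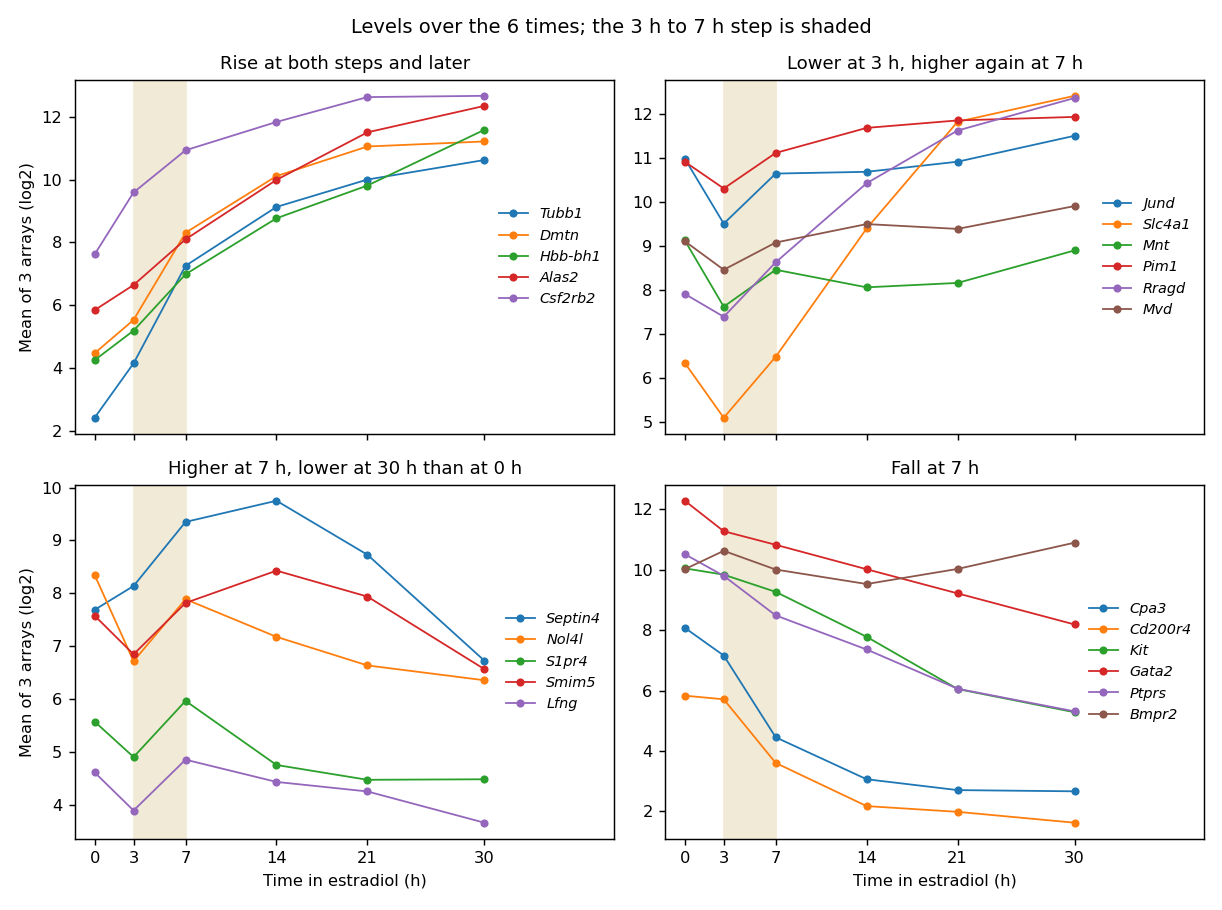
Mean log2 expression (3 arrays each) of 22 genes against hours in estradiol, with the interval from 3 h to 7 h shaded. The panels show genes that rose at both early steps, genes that were lower at 3 h and higher again at 7 h, genes that rose at 7 h and ended lower at 30 h than at 0 h, and genes that fell at 7 h, of which Bmpr2 ended higher at 30 h than at 0 h.

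Immediate early genes, which cells switch on within minutes of a signal, rose in 6 of 22 tested with no fall (0), at a median of 0.128 (-0.017 with control scaling). Btg2, an antiproliferative gene and a target of p53, had log2 levels of 7.71, 7.80 and 7.87 at 3 h and 8.99, 9.06 and 8.96 at 7 h, a rise of 1.21 (SE 0.099, adjusted p = 5.96e-07). Jun read 4.17, 4.01 and 4.38 at 3 h and 5.43, 5.09 and 4.89 at 7 h, a rise of 0.95 (adjusted p = 3.89e-04). Dusp1, the phosphatase that switches MAP kinases off, read 8.64, 8.87 and 8.78 at 3 h and 9.87, 9.88 and 9.83 at 7 h, a rise of 1.10 (adjusted p = 2.62e-07). Btg2, Jun and Dusp1 were each separated by the arrays and called with control scaling. Dusp1 does not stand for the KIT and RAS-MAPK list of 13. There it was the 1 gene called higher, beside 2 called lower, Kit and Spred1, at a median of -0.072.

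Cytokine signalling genes rose in 9 of 22 tested, with 1 fall and a median of 0.13 (-0.015 with control scaling). Csf2rb2, a mouse-specific beta chain of the IL-3 receptor, had log2 levels of 9.48, 9.75 and 9.54 at 3 h and 10.87, 10.95 and 10.97 at 7 h, a rise of 1.34 (SE 0.071, adjusted p = 1.35e-08). Csf2rb, the beta chain shared by the receptors for IL-3, IL-5 and GM-CSF, read 10.75, 10.76 and 10.80 at 3 h and 11.78, 11.80 and 11.83 at 7 h, a rise of 1.04 (SE 0.059, adjusted p = 1.47e-08). These genes are close relatives, so their probe sets may share signal. Both were among the brightest to rise and had means of 7.62 (Csf2rb2) and 8.70 (Csf2rb) at 0 h. Pim1, a survival kinase downstream of STAT5, read 10.26, 10.37 and 10.30 at 3 h and 11.02, 11.12 and 11.22 at 7 h, a rise of 0.81 (adjusted p = 2.66e-06), and Epor, the erythropoietin receptor, read 9.67, 9.85 and 9.76 at 3 h and 10.38, 10.40 and 10.31 at 7 h, a rise of 0.60 (adjusted p = 3.46e-05). Sh2b3, the adaptor LNK that dampens these receptors, rose by 0.63 (adjusted p = 0.00106) to 8.37, still near its 0 h mean of 8.33.

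In the MYC and MAX network the MXD family repressors, Mnt and Mlx rose, while Myc itself was not called. Of 12 tested, 6 were called higher and none (0) lower, with a median of 0.178, control scaling left 2 calls, and averaged probe sets left 3. Mxd4, a MAX dimerisation repressor, had log2 levels of 7.45, 7.52 and 7.42 at 3 h and 8.96, 9.0 and 8.82 at 7 h, a rise of 1.46 (SE 0.12, adjusted p = 7.17e-07), from a 0 h mean of 8.38. Mxi1, another of these repressors, rose by 0.37 (adjusted p = 0.00311), a call that the mean of its probe sets did not give. Most cell cycle genes were not called, as was true of all genes. Of 34 replication genes 4 were called higher and of 29 mitosis genes 5, with no falls (0), beside 9.80% higher and 5.14% lower of all genes. Their medians were 0.003 and 0.022 (-0.142 and -0.123 with control scaling). The 5 mitosis calls became 8 without 7 h replicate 3, 2 without 3 h replicate 3 and 3 without any other of the 6 arrays. Ccne1, cyclin E1, read 10.11, 9.98 and 10.09 at 3 h and 10.72, 10.76 and 10.60 at 7 h, a rise of 0.63 (adjusted p = 9.83e-06). Cdc25b, a phosphatase that starts mitosis, read 8.05, 8.18 and 8.05 at 3 h and 9.20, 9.29 and 9.27 at 7 h, a rise of 1.16 (SE 0.11, adjusted p = 1.67e-06). Ccnd3, the D cyclin that sets red cell size and number, read 8.61, 8.67 and 8.53 at 3 h and 9.62, 9.70 and 9.64 at 7 h, a rise of 1.05 (SE 0.077, adjusted p = 2.39e-07). In contrast, Cdk6, a partner kinase of D cyclins, changed by -0.29 (adjusted p = 0.00258), and Cdkn1a, the inhibitor p21, rose by 0.33 (adjusted p = 9.62e-04). The arrays of both times did not overlap for any of these cell cycle genes.

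Some growth genes fell. Of 39 ribosome biogenesis genes 8 were called lower and none (0) higher, with a median of -0.173 and 7 changes above 0, against 5.14% lower calls among all genes. Control scaling called none (0) of them, at a median of -0.318 beside -0.1306 for all genes. The count of falls was 15 with averaged probe sets and 13 with only the 6 arrays, and it was 5, 4 and 4 without 3 h replicate 1, 2 and 3 and 3 without 7 h replicate 2. Wdr12, a processing factor of the large ribosomal subunit, read 10.84, 10.79 and 10.81 at 3 h and 10.45, 10.54 and 10.46 at 7 h on the log2 scale, a change of -0.33 (adjusted p = 0.00383). Utp4, a processing factor of the small subunit, read 9.86, 9.82 and 9.86 at 3 h and 9.56, 9.56 and 9.51 at 7 h, a change of -0.30 (adjusted p = 0.00119). Both fell by less than 0.4 with no overlap of arrays. Purine and pyrimidine synthesis genes fell in 4 of 17, with no rise (0) and a median of -0.149. Control scaling called none (0) of them, at a median of -0.294. The falls numbered 7 with only the 6 arrays, and 2 without any 1 of the 3 h arrays or without 7 h replicate 3. Among the 4 were Atic, which completes the purine ring, at a change of -0.25 (adjusted p = 0.008), and Adss, on the way to AMP, at -0.36 (adjusted p = 0.011). The call of Adss was lost without 7 h replicate 1. In the list of glycolysis, pentose phosphate and glucose transporter genes 6 of 22 rose with no fall (0). The median was 0.077 (-0.068 with control scaling, and no call (0)). The 6 were Pfkl, Pfkm, Hk1, the pentose phosphate gene Tkt and the glucose transporters Slc2a1 and Slc2a3. Pfkl and Pfkm, isoforms of the committing kinase of glycolysis, rose by 0.63 (adjusted p = 8.75e-05) and 0.49 (adjusted p = 1.55e-04).

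Autophagy and lysosome genes rose in 11 of 30 tested with no fall (0), at a median of 0.191, and control scaling called 2. Map1lc3a, a form of LC3 that coats autophagosomes, had log2 levels of 6.05, 6.35 and 6.28 at 3 h and 7.25, 7.26 and 7.32 at 7 h, a rise of 1.05 (SE 0.083, adjusted p = 4.50e-07). Atg9a, the membrane protein that seeds autophagosomes, read 7.30, 7.27 and 7.35 at 3 h and 8.29, 8.29 and 8.27 at 7 h, a rise of 0.98 (SE 0.080, adjusted p = 5.96e-07). These 2 genes kept their calls with control scaling. Ctsb, the lysosomal protease cathepsin B, was bright and moved from 10.85 to 11.50, a rise of 0.64 (adjusted p = 6.03e-07), and Ctsl, cathepsin L, rose by 0.61 (adjusted p = 4.18e-05). Ctse, a protease of the same broad class though not of the list, fell by 0.51 from 11.41 to 10.90 (adjusted p = 1.30e-04).

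Survival and stress genes moved on both sides of cell death. Of 13 BCL2 family genes 7 rose with no fall (0), at a median of 0.229. Bcl2l1, the survival protein BCL-XL, read 7.75, 7.88 and 7.78 at 3 h and 8.34, 8.42 and 8.31 at 7 h, a rise of 0.55 (adjusted p = 8.91e-05). Bbc3, the death-promoting protein PUMA, read 4.83, 5.28 and 5.14 at 3 h and 5.86, 5.82 and 5.84 at 7 h, a rise of 0.75 (adjusted p = 3.96e-04). Bnip3, a mitophagy receptor, read 9.68, 9.98 and 9.54 at 3 h and 10.31, 10.73 and 10.67 at 7 h, a rise of 0.84 (adjusted p = 6.40e-04). Protective and death-promoting members thus rose alike, and Bnip3 alone kept its call with control scaling. Of 17 p53 targets 7 were called higher and none (0) lower, at a median of 0.084 (-0.061 with control scaling), among them Trp53inp1, at log2 levels of 9.14, 9.27 and 9.17 at 3 h and 10.16, 10.08 and 10.31 at 7 h and a rise of 0.99 (adjusted p = 4.50e-07). Ppp1r15a, the GADD34 subunit that restarts translation after stress, read 6.48, 6.55 and 6.50 at 3 h and 7.63, 7.77 and 7.40 at 7 h, a rise of 1.09 (SE 0.11, adjusted p = 4.33e-06), and led the list of tRNA synthetases and ATF4 targets, of which 8 of 35 rose and 1 fell at a median of 0.04 (-0.105 with control scaling). That list gave 5, 4 and 2 rises without 3 h replicate 1, 2 and 3, 3 without 7 h replicate 1 or 2, and 5 with a replicate block. Heat shock genes gave 1 rise and 3 falls among 21, antioxidant genes 3 and 2 among 21, and interferon genes 2 and 1 among 16. Among all genes 9.80% rose and 5.14% fell, and these small counts are not read as a result. The medians were -0.036, 0.048 (-0.097 with control scaling) and -0.038. No heat shock fall (0) was called without 3 h replicate 2 or 3 or 7 h replicate 2.

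Adhesion receptors and cytoskeletal genes split. Of 29 tested, 12 were called higher and 8 lower, with a median of 0.105 (-0.04 with control scaling). The falls numbered 4 without 3 h replicate 2 or 7 h replicate 1 and 5 without 3 h replicate 1 or 3 or 7 h replicate 2. Lmna, the nuclear lamin A/C, had log2 levels of 10.48, 10.29 and 10.34 at 3 h and 11.15, 11.26 and 11.03 at 7 h, a rise of 0.77 (adjusted p = 5.96e-07). Itgb2, the beta chain of the leukocyte integrins, read 6.54, 6.62 and 6.50 at 3 h and 7.39, 7.38 and 7.37 at 7 h, a rise of 0.83 (adjusted p = 8.72e-05). Itgal, an alpha chain that pairs with it, read 5.42, 5.48 and 5.51 at 3 h and 4.81, 5.05 and 4.72 at 7 h, a change of -0.61 (adjusted p = 0.00676). The 2 chains of 1 integrin therefore went opposite ways, each without overlap. Zfp36l1, which binds AU-rich mRNA, changed by -0.26 (adjusted p = 0.00487). In its mRNA decay list 3 of 15 rose and 1 fell, beside 9.80% and 5.14% of all genes, and 1 rose without 7 h replicate 1 or 3.

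**Figure D4:**
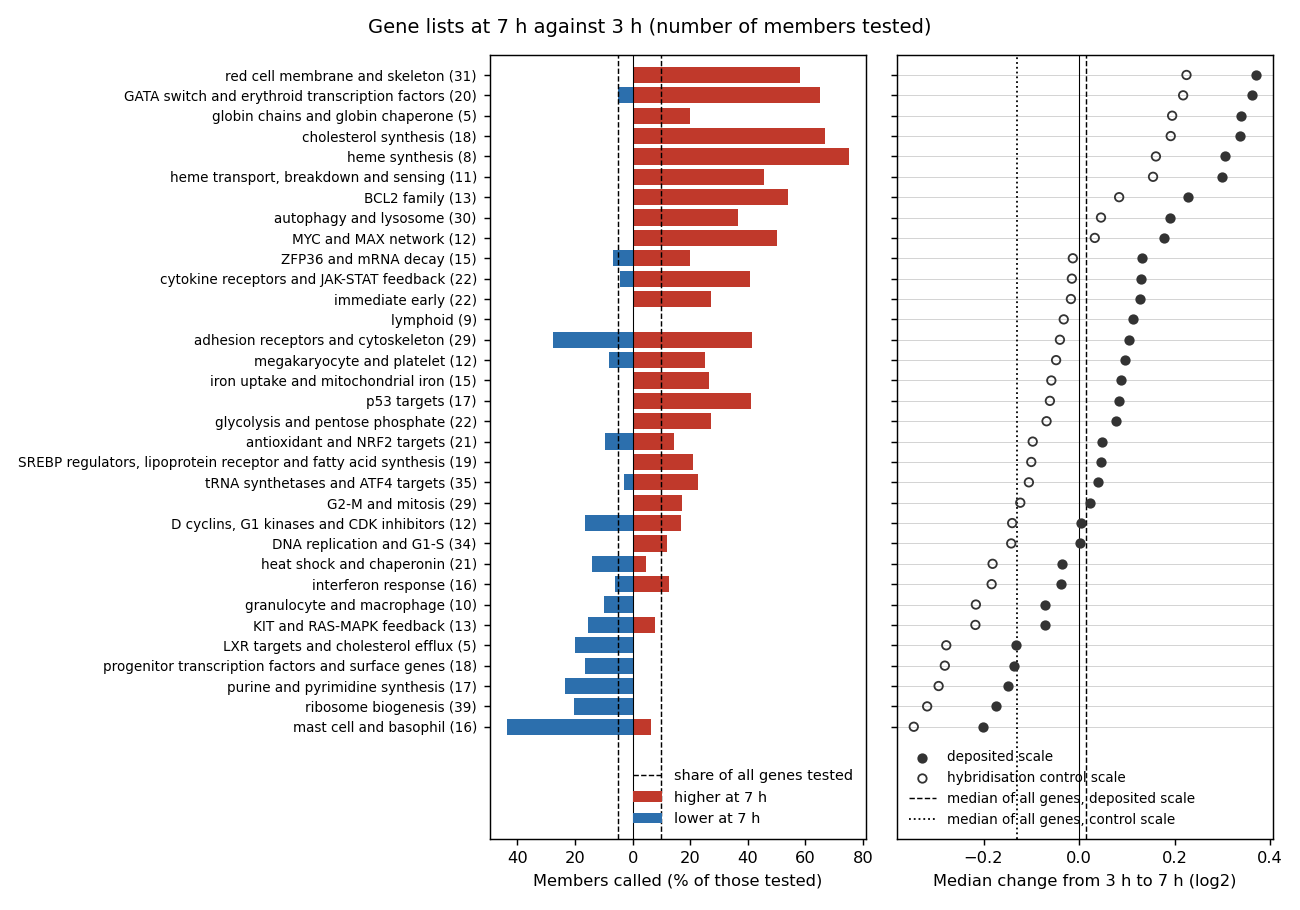
For each of 33 gene lists, with the number of members tested in brackets, the left panel gives the percent of those members called higher (red) and lower (blue) at 7 h, with dashed lines at 9.80% and 5.14% for all genes, and the right panel gives the median log2 change on the deposited scale (filled) and with control scaling (open). Lists are ordered by the deposited median, from 0.37 for membrane and skeleton genes to -0.201 for mast cell genes. Every open point lies to the left of its filled point by the same shift, since control scaling moves all genes alike.

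Other large falls were in signalling, cytoskeletal and patterning genes. Ptprs, a receptor tyrosine phosphatase, had log2 levels of 9.75, 9.83 and 9.81 at 3 h and 8.39, 8.55 and 8.53 at 7 h, a change of -1.31 (SE 0.075, adjusted p = 1.74e-08). Lpar6, a lysophosphatidic acid receptor, read 8.01, 8.14 and 8.16 at 3 h and 6.78, 6.81 and 6.70 at 7 h, a change of -1.34 (SE 0.12, adjusted p = 1.39e-06). Hoxc8, a homeobox factor, read 9.43, 9.26 and 9.27 at 3 h and 8.12, 8.0 and 8.12 at 7 h, a change of -1.24 (SE 0.16, adjusted p = 6.05e-05). Each was lower on all 7 h arrays, as its choice required. Each ended lower at 30 h than at 0 h, with changes of -5.21 (Ptprs), -2.86 (Lpar6) and -4.08 (Hoxc8) on the log2 scale. Flna, the actin cross-linker filamin A, read 9.46, 9.47 and 9.39 at 3 h and 8.31, 8.33 and 8.28 at 7 h, a change of -1.13 (SE 0.11, adjusted p = 4.18e-06), and Iqgap2, a scaffold of the actin skeleton, 9.17, 9.17 and 9.14 at 3 h and 8.14, 8.16 and 8.17 at 7 h, a change of -1.0 (adjusted p = 0.00519). St8sia4, a polysialyltransferase, changed by -1.20 (adjusted p = 2.54e-08), Ahnak, a giant scaffold protein, by -0.99 (adjusted p = 4.64e-07), and Gfpt1, which opens the hexosamine pathway, by -0.90 (adjusted p = 4.89e-05). Among the brightest 10% of genes, falls were small: Mt2, a metallothionein, moved from 12.11 to 11.76 and Cbfb, the partner of RUNX factors, from 11.40 to 11.00.

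Further large rises were Tmem120b, at 1.53 (adjusted p = 1.47e-08), Acp5, the tartrate-resistant acid phosphatase, at 1.48 (adjusted p = 2.39e-07), Rogdi at 1.25 (adjusted p = 2.21e-08) and Ypel3, of the yippee-like family, at 1.24 (adjusted p = 1.47e-08). Acp5 and Ypel3 began near their 3 h levels: their 0 h means, 7.07 and 6.69, lay within 0.1 of their 3 h means. Ilkap, a phosphatase that binds integrin-linked kinase, read 7.42, 7.37 and 7.65 at 3 h and 8.67, 8.69 and 8.66 at 7 h, a rise of 1.19 (SE 0.090, adjusted p = 2.99e-07). Among the brightest 10%, Ptdss2, a phosphatidylserine synthase, read 10.51, 10.49 and 10.44 at 3 h and 11.44, 11.40 and 11.37 at 7 h, a rise of 0.92 (adjusted p = 3.05e-07). Klf13, a Krüppel-like factor, read 10.70, 10.79 and 10.74 at 3 h and 11.47, 11.55 and 11.50 at 7 h, a rise of 0.77 (adjusted p = 4.58e-07). Kcnn4, the Gardos potassium channel of red cells, read 11.13, 11.02 and 11.02 at 3 h and 11.85, 11.76 and 11.64 at 7 h, a rise of 0.69 (adjusted p = 2.32e-05), from a 0 h mean of 11.61. None of these bright genes had overlapping arrays.

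Most of the changes of this interval ran in the direction of the whole course, read from the 0 h and 30 h arrays. Those arrays do not enter the size of a change from 3 h to 7 h, but they share its estimate of the spread. The whole course also contains this interval, so the overlap is no independent check. Of the 1247 rises, 968 (77.6%) were also called higher at 30 h than at 0 h, 128 (10.3%) were called lower and 151 not called. Of the 654 falls, 537 (82.1%) were called lower, 61 (9.33%) higher and 56 not called, and without 3 h replicate 3 the falls also lower at 30 h numbered 344. Over all genes tested, 4651 (36.6%) were higher and 4195 (33.0%) lower at 30 h, so the rises made up 20.8% of the former and the falls 12.8% of the latter. Of the 62 rises of at least 2-fold, 57 were higher at 30 h and 3 lower, and all 38 falls of that size were lower. Alas2 reached 12.34 at 30 h and Dmtn 11.21, while Cpa3 ended at 2.66.

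Some rises were passing. Septin4, a septin, had log2 levels of 8.12, 8.15 and 8.15 at 3 h and 9.43, 9.32 and 9.28 at 7 h, a rise of 1.20 (SE 0.11, adjusted p = 2.00e-06), peaked with a mean of 9.75 at 14 h and stood at 6.73 at 30 h, -0.96 (adjusted p = 1.02e-06) from 0 h. Nol4l read 6.79, 6.69 and 6.68 at 3 h and 7.94, 7.69 and 8.04 at 7 h, a rise of 1.17 (SE 0.090, adjusted p = 3.82e-07), after a mean of 8.35 at 0 h, and ended at 6.36. S1pr4, a sphingosine phosphate receptor, read 4.89, 5.07 and 4.77 at 3 h and 6.16, 6.04 and 5.72 at 7 h, a rise of 1.06 (adjusted p = 0.00168), and was back at 4.76 by 14 h. Its 7 h mean of 5.97 was the highest of the 6 times. Smim5 and Lfng, which modifies Notch, rose by 0.97 (adjusted p = 5.66e-07) and 0.96 (adjusted p = 4.11e-04) and ended at 6.57 and 3.67.

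Some falls were passing too. Bmpr2, a receptor for bone morphogenetic proteins, had log2 levels of 10.59, 10.65 and 10.66 at 3 h and 10.04, 9.95 and 10.03 at 7 h, a change of -0.63 (SE 0.059, adjusted p = 2.61e-06). Its 0 h mean was 10.02 and its 30 h mean 10.90, so the fall undid a gain made by 3 h. Ly96, a partner of the endotoxin receptor, read 6.12, 6.13 and 6.33 at 3 h and 5.38, 5.46 and 5.40 at 7 h, a change of -0.78 (SE 0.079, adjusted p = 5.31e-06), and ended at 6.89. Cdkn2c, the inhibitor p18, changed by -0.29 (adjusted p = 0.011), a call lost without 7 h replicate 3, from 9.46 to 9.17, and stood at 10.71 at 30 h. Usp18, a brake on interferon signalling, had moved from 3.23 to 6.24 before it came down to 5.56, a change of -0.68 (adjusted p = 0.0285) whose call was lost when any 1 of the 6 arrays was left out.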

How the data were processed

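On each Affymetrix mouse array, 45101 probe sets were measured, and the authors deposited their levels as log2 values. RNA was extracted with Trizol and biotin-labelled, per the labels' protocols. The sources used here do not name the summarisation, background correction or scaling. A common scale sets changes relative to the middle of all genes.

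From these values, 34958 probe sets with 1 gene in the platform annotation were kept, and 932 with several genes and 9211 with none were left out of gene counts. Of several probe sets of a gene, the one brightest over the series was kept. Testing was limited to genes for which 3 or more arrays lay above their own 40th percentile (12720 of 18194). All 18 arrays entered 1 fit in limma 3.58.1 (R 4.3.3), with a mean per time and 12 residual degrees of freedom. Alternatives were other scalings, filters, probe set rules, variance models, a replicate block, a 2-fold minimum and each array left out. P-values are two-sided and Benjamini-Hochberg adjusted across the genes tested. Tested on simulated data for 7 h versus 3 h (12720 genes), 34% of the genes changed 1.25-fold were recovered, 82% of those changed 1.5-fold and 94% of those changed 2-fold, beside 8 false calls. Only a small set of genes was changed there, far fewer than were called in the data. With so few changes the adjustment is stricter, so these shares need not hold for the data.

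Named genes are the 15 largest rises and falls of at least middling level whose arrays did not overlap between times. Added to these are the 8 largest of each among the brightest 10% and 6 of each that went the other way by 30 h. Up to 5 of each list and 8 followed in any case were named too, with unnamed transcripts skipped (175 genes). Tfrc, Tal1, Gfi1b, Epor, Icam4, Kel, Hmgcs1, Hba-a2, Hbb-b2, Hba-x, Hbb-y, Gzmb, Il4 and Hdc were singled out beside the rule. The 33 lists (597 genes tested) came from textbook knowledge. Members and lists were chosen with earlier results of these data known. Promoters were matched by symbol to RefSeq's table for GRCm38.p6.

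Replicate numbers did not pair the arrays: the correlations of same-numbered deviations were 0.042, -0.032 and 0.106. No arrays held identical values (0 pairs).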

Additional observations from a re-analysis of the deposited data

How the results depend on the processing

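Counts of rises and falls kept within 1.5 times of the reported ones under quantile normalization, equal medians, other filters, the mean of probe sets, only the 6 arrays (1519 and 916) and a trended variance. With the replicate number as a block (the replicate block), a pairing the data did not bear out, 1194 genes were higher and 607 lower, and 1802 differed between steps. Scaling on the hybridisation controls gave 127 higher, 173 lower and 217 that differed between steps, and 112 rises and 151 falls in the direction of 30 h. With every probe set tested singly, 1064 were lower and 870 of them lower at 30 h. A 2-fold minimum gave 62 rises, 38 falls and 348 differences between steps, with 57 rises and 38 falls in the direction of 30 h. Leaving out 1 array gave 865 to 1218 rises, 404 to 522 falls (429 without 3 h replicate 2, 404 without 3 h replicate 3), 1077 to 1945 differences between steps and 344 to 420 falls also lower at 30 h, from fewer samples. The changes of Srf and Wipi1, called higher on the deposited scale, were -0.057 and -0.026 without probe sets prone to cross-hybridise, and the Myc change lay between -0.047 and 0.055 without 1 array. Beyond the fewer samples or higher bar these settings bring, the cause was not tested. Of the 175 named genes, 100 lost their call with control scaling, and none (0) reversed there. The steps and 30 h counts need other arrays and were not run on only the 6. With 3 arrays a time, changes of 1.25-fold were mostly missed in the simulation, though it changed so few genes that its share need not hold here.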

Other observations

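Of 8 genes with several probe sets, some probe sets were called higher and others lower at 7 h: Btrc, Chchd7, Eps15l1, Mapt, Mm2pr, Rmdn1, Stx6 and Ublcp1. For these the direction depends on the probe set, and none is used above. Probe sets that the annotation gives several genes were called higher in 23 and lower in 13 of 655 tested, and those with no gene in 101 and 87 of 4524.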
